A study of Rattus norvegicus with 5 samples.

Results

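Dbp, Tef and Usp2 were higher, and Nfil3 lower, in the liver of the congenic rat strain PD.SHR4 than in its progenitor strain PD. The 4 genes were taken by name, as the proline and acidic amino acid-rich basic leucine zipper (PAR bZIP) factors Dbp and Tef, their opponent Nfil3 and the clock output Usp2, from the 7589 genes that the deposited table resolved. Each had 1 probe set. They were chosen by their log2 differences between the strains, seen in these same arrays, so that difference is given for them as a description, with no test. Hlf, the remaining PAR bZIP factor, was not analysed here.

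The circadian clock is a transcription loop in which BMAL1 and CLOCK activate genes through E-box sequences, and the PER and CRY proteins they induce repress them. Dbp is one of the direct E-box targets, and its messenger RNA swings widely over the day in liver. DBP, TEF and HLF activate genes through the D-box, a short sequence that was first studied in the albumin promoter. NFIL3, also called E4BP4, binds the same sequence and represses, and its transcript is itself under REV-ERB control. Through this output the liver times detoxification, haem supply and parts of lipid metabolism.

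PD is the polydactylous rat strain. PD.SHR4, called PD.SHR4a in the series text, has the PD background with chromosome 4 sequence from SHR, the spontaneously hypertensive rat, and the series concerns Cd36-deficient congenic animals. All animals were males 4 months old, on standard chow with no treatment named, and their livers were snap frozen after killing. RNA came from 8 rats per strain, the labelled cDNA was pooled within the strain, and the pools were hybridised to 3 PD and 2 PD.SHR4 Affymetrix Rat Exon 1.0 ST arrays. The values therefore hold no spread between rats, and every SD, SE and p below measures only the spread between arrays, which may be technical. The labels used here give no time of day of collection, so for these rhythmic transcripts a difference between the strains and a difference in collection time cannot be told apart.

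Values are log2 expression levels computed by the authors with robust multi-array averaging (RMA), in which 1 unit is a doubling. Array medians lay between 5.21 and 5.38. Arrays correlated at 0.988 to 0.994 within a strain (4 pairs) and at 0.986 to 0.987 between strains (6 pairs). The probe set shared by Cd36, the fatty acid translocase, and Cd36l1 measured 7.35, 7.83 and 7.93 in PD and 4.18 and 4.85 in PD.SHR4. The hepatocyte markers Alb, Ttr, Serpina1 and Fgb were bright on every array, and the summed level of 10 such markers was 122.04 to 122.45 in PD and 121.76 to 121.86 in PD.SHR4. Of 8 Kupffer cell and macrophage markers 7 were below 0 in the difference PD.SHR4 minus PD, with summed levels of 69.23 to 70.41 in PD and 66.54 to 66.73 in PD.SHR4. Of 9 lymphocyte markers 8 were below 0, with sums of 41.66 to 43.35 and 36.40 to 36.91, and of 4 endothelial and stellate markers 3 were, with sums of 26.12 to 28.78 and 25.52 to 25.88. No marker passed the test over all probe sets. At an unadjusted p under 0.05 there were 1 hepatocyte, 6 macrophage, 5 lymphocyte and 2 endothelial or stellate markers, all lower. No marker was at 0, but dim probe sets also lie above 0 on this scale, and the values carry no detection calls. The lower quartile of the arrays was 2.84 to 2.93. The lymphocyte marker Cd8b lay below it on every array, and Cd3d on both PD.SHR4 arrays. The part of the marker shifts in the results below was not tested, and in bulk tissue fewer cells of a type and less RNA per cell cannot be told apart.

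The promoter windows of the 4 genes are shown because Dbp, Tef and Usp2 moved together and against Nfil3. The letters show which exact matches to clock elements lie next to their start sites. Each window runs from 250 bases before to 50 bases after the start site that the RefSeq table (build GRCr8) gives for the gene, 5′ to 3′ on the gene's strand. Capitals mark matches, on either strand, to the D-box (TTATGTAA or TTACGTAA), the E-box CACGTG, the REV-ERB and ROR element TAGGTCA, or its core AGGTCA, which every TAGGTCA contains. The windows are chr1:105312006-105312305 for Dbp, chr7:115206577-115206876 for Tef, chr8:53310620-53310919 for Usp2 and chr17:12432126-12432425 for Nfil3, all on the plus strand.
Dbp: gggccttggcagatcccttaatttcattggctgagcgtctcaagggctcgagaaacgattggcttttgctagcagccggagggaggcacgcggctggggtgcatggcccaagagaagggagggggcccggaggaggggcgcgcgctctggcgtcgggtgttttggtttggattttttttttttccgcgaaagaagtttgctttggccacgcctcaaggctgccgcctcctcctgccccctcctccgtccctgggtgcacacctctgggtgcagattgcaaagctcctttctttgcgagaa
Tef: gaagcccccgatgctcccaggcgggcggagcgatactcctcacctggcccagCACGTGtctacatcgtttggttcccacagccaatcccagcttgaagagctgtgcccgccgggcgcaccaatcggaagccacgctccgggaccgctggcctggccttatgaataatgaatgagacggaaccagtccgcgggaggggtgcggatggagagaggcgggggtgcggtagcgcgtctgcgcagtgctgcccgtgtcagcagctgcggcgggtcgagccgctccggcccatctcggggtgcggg
Usp2: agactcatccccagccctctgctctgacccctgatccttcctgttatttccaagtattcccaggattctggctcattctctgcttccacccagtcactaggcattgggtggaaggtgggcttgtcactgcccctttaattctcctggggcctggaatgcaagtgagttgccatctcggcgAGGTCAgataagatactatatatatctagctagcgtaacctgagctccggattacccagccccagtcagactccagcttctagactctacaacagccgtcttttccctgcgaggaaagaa
Nfil3: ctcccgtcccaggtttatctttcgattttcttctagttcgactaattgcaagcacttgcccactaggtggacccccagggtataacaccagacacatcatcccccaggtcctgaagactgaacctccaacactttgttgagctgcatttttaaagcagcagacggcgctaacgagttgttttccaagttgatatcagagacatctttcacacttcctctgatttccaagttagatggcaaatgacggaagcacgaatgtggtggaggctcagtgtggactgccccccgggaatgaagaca

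The Tef window held 1 E-box, whose first base lies 198 bases before the start site. In Usp2 a single AGGTCA lay 70 bases before it. The windows of Dbp and Nfil3 held none of the searched letters, which says nothing about elements spelled otherwise or sequence outside these windows, introns included. Among 33469 RefSeq windows of the same length, 6.42% held the E-box, 16.2% the AGGTCA core, 2.63% TAGGTCA and 1.01% a D-box. Among the other pathway genes, the D-box letters were found in Per2, a clock repressor gene, and in Alb, the gene of albumin. Both are printed as examples of the searched D-box letters. Only exact matches were taken, so D-box sites with other letters are not marked. The Alb window also holds TTTTGTAA nearer the start site, a near match to TTATGTAA that is left in lower case. The capitals in Alb therefore need not mark the albumin site studied first. Which site that is, and whether either is bound, was not tested. The windows are chr9:99496944-99497243 for Per2 and chr14:17906930-17907229 for Alb, both on the minus strand.
Per2: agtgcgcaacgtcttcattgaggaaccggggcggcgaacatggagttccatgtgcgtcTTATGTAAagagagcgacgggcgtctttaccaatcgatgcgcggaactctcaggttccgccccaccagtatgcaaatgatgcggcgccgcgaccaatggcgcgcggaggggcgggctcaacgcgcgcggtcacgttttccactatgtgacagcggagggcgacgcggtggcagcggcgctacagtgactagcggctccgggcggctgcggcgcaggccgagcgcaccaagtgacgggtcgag
Alb: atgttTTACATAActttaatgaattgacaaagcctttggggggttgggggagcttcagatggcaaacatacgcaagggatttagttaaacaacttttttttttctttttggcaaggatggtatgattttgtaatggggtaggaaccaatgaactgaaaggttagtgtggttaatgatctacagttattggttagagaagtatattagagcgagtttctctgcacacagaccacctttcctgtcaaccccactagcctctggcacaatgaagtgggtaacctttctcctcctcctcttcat

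In Per2 the match began 192 bases before the start site and in Alb 245 bases before it. These were 1 of the 8 clock genes and 1 of the 19 target genes that had a window. Per2 is among the genes that rose in PD.SHR4, while Alb measured 13.16, 13.25 and 13.18 in PD and 13.24 and 13.27 in PD.SHR4. Its value was the highest of PD array 2 and of both PD.SHR4 arrays, and close to the highest of the others. Whether a rise could still show at that level was not tested. Alb was chosen for display after its value was seen.

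Dbp, the PAR bZIP activator with the strongest daily rhythm, measured 7.19, 5.70 and 5.34 on PD arrays 1, 2 and 3 and 10.003 and 10.16 on PD.SHR4 arrays 1 and 2. Both PD.SHR4 arrays were far above every PD array, and within PD array 1 stood above the other 2. The means were 6.07 ± 0.98 (SD, n = 3) and 10.08 ± 0.11 (SD, n = 2), a log2 difference of 4.01 ± 0.54 (SE), or 16.1-fold. Over the 6 pairs of a PD.SHR4 and a PD array the difference ran from 2.82 to 4.82, against a range of 1.85 within PD. Without PD array 1 the difference was 4.56.

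Tef, thyrotroph embryonic factor, is the second PAR bZIP activator. It measured 6.91, 6.72 and 6.19 on the PD arrays and 7.92 and 7.85 on the PD.SHR4 arrays. The strains did not overlap, and here PD array 3 was the low one. The means were 6.60 ± 0.37 (SD, n = 3) and 7.89 ± 0.05 (SD, n = 2), a log2 difference of 1.28 ± 0.23 (SE), or 2.43-fold. The 6 array pairs gave 0.94 to 1.73, against a range of 0.72 within PD.

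Usp2, a ubiquitin-specific protease whose transcript is a rhythmic clock output in many tissues, measured 5.99, 5.73 and 5.71 in PD and 7.21 and 7.28 in PD.SHR4. Arrays of a strain lay close together, and the strains were well apart. The means were 5.81 ± 0.16 (SD, n = 3) and 7.25 ± 0.05 (SD, n = 2), a log2 difference of 1.44 ± 0.14 (SE), or 2.71-fold. The pairs gave 1.21 to 1.58, against a range of 0.29 within PD.

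Nfil3, the repressor at the D-box, moved the other way. It measured 8.83, 8.91 and 8.99 in PD and 7.67 and 7.07 in PD.SHR4. All PD.SHR4 values were lower, and here the spread lay between the 2 PD.SHR4 arrays. The means were 8.91 ± 0.08 (SD, n = 3) and 7.37 ± 0.42 (SD, n = 2), a log2 difference of -1.54 ± 0.20 (SE), or 2.91-fold lower. The pairs gave -1.92 to -1.16, and the PD.SHR4 arrays differed by 0.60. The log2 difference was -1.84 without PD.SHR4 array 1 and -1.24 without PD.SHR4 array 2.

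**Figure D1:**
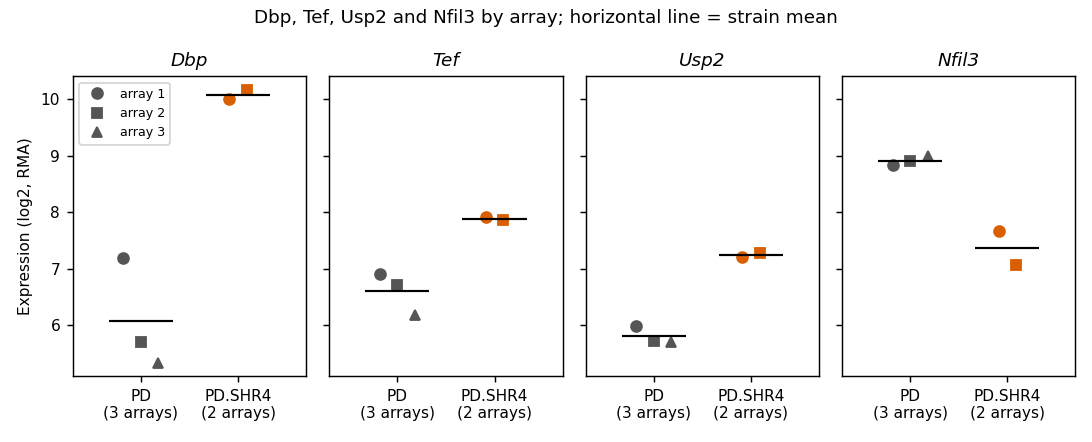
Log2 RMA expression (vertical axis) of Dbp, Tef, Usp2 and Nfil3 on each PD array (grey) and PD.SHR4 array (orange), with marker shape giving the array number and a horizontal line the strain mean. The strains do not overlap in any of the 4 panels; Dbp runs from 5.34 to 7.19 across PD, and Nfil3 from 7.07 to 7.67 across PD.SHR4.

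Over the whole array, 82 of 8797 probe sets (0.932%) were called by limma's test at an adjusted p under 0.05. They were 24 higher (0.273%) and 58 lower (0.659%), a split that was 41 and 59 after median centring and 47 and 65 after a further quantile normalisation. Without overlap between the strains, 14.8% of probe sets were higher and 17.1% lower. The 4 genes also did not overlap, but since they were picked for this contrast nothing is read from that. In size Dbp stood apart from the other 3, whose differences lay between 1.28 and 1.54 in absolute value.

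The spread inside a strain was not used to choose the genes. The SD over the PD arrays was 0.98 for Dbp, above that of 99.5% of the 7589 genes. It was 0.37 for Tef, above 87.7%, 0.16 for Usp2, above 44.7%, and 0.08 for Nfil3, above 15.9%. Dbp was thus among the most variable genes between PD arrays and Nfil3 among the steadier ones. Between the PD.SHR4 arrays the order was different. The gap there was 0.60 for Nfil3, above that of 95.4% of genes, 0.16 for Dbp, above 58.7%, 0.08 for Usp2, above 32.7%, and 0.06 for Tef, above 27.9%. Without PD array 1 the SD of Dbp over the remaining PD arrays was 0.25, and that of Usp2 was 0.02. Without PD array 3 the SD of Tef was 0.14. The SD of Usp2 was 0.28 after a further quantile normalisation and 0.23 after median centring.

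**Figure D2:**
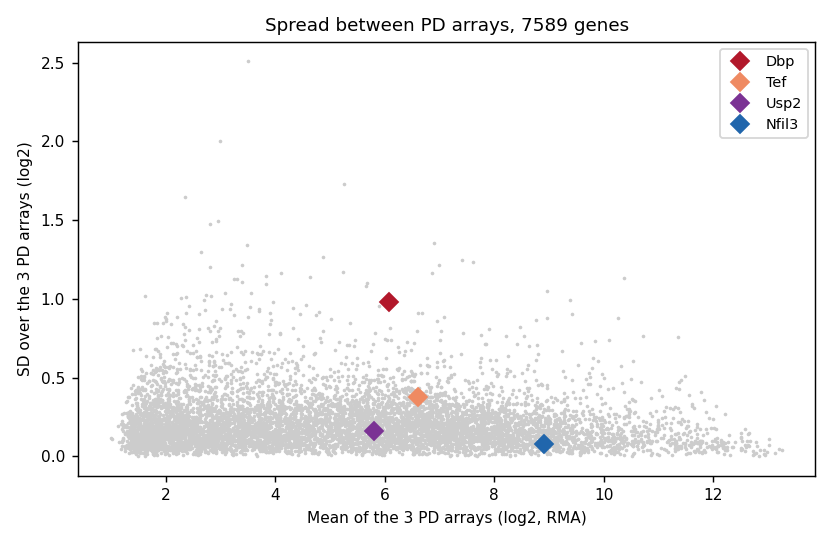
SD over the 3 PD arrays (vertical axis, log2) against their mean (horizontal axis, log2 RMA) for 7589 genes (grey points), with Dbp, Tef, Usp2 and Nfil3 as coloured diamonds. Dbp, at an SD of 0.98, lies near the top of the cloud, while Nfil3, at 0.08, lies near its floor.

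Within PD, array 1 had the highest value of Dbp, Tef and Usp2 and array 3 the lowest, and Nfil3 had its lowest value on array 1 and its highest on array 3. This arrangement was noticed in the data. Across all genes 9.29% were highest on PD array 1 and lowest on PD array 3, and 12.3% were the reverse. Array 1 stayed highest for Dbp, Tef and Usp2 after median centring and after a further quantile normalisation, but for Usp2 array 2 was then the lowest, and for Nfil3 array 2 was then the lowest in place of array 1. The distances differed widely, with PD array 1 minus PD array 3 at 1.85 for Dbp, 0.72 for Tef, 0.29 for Usp2 and -0.16 for Nfil3. Of the 9 clock genes measured, Per2 (4.99, 4.72 and 4.50 on PD arrays 1, 2 and 3) and Per3 (5.18, 4.94 and 4.85) shared the arrangement of Dbp. Per2 kept it after median centring and after a further quantile normalisation, while Per3 kept it after the latter and was lowest on array 2 after centring. Bmal1 was lowest on array 1, at 6.81 against 7.47 and 7.43. Nr1d1, which encodes REV-ERB-alpha, did not follow Dbp, at 8.49, 8.79 and 7.35. In PD.SHR4, array 2 exceeded array 1 for Dbp and Usp2 and was below it for Tef and Nfil3.

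**Figure D3:**
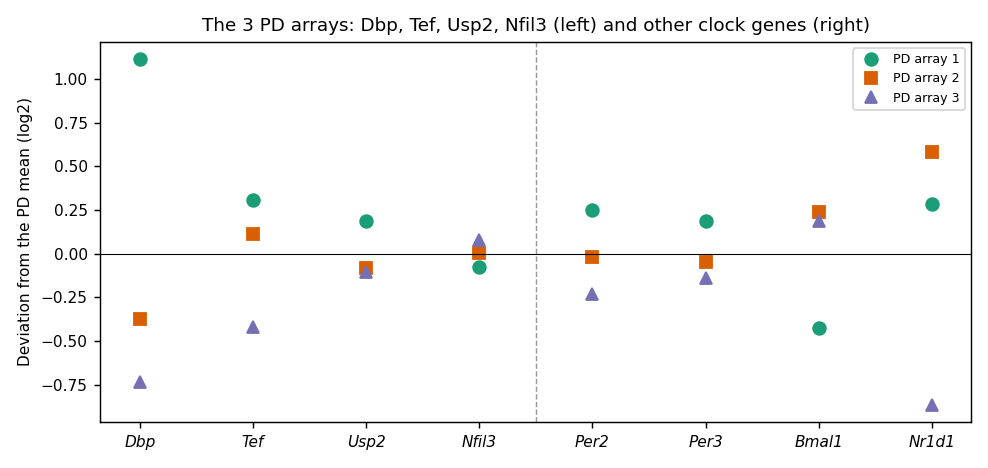
Deviation of each of the 3 PD arrays from their mean (vertical axis, log2), for Dbp, Tef, Usp2 and Nfil3 left of the dashed line and for 4 other clock genes right of it. PD array 1 (circle) is the highest point for Dbp, Tef, Usp2, Per2 and Per3 and the lowest for Nfil3 and Bmal1.

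The clock genes upstream of Dbp were then counted in the fit over all probe sets, over a list that leaves out the 4 genes. The list was written with earlier results of these data known, so its counts are a description. Of 9 measured, Per2 and Per3 rose, Bmal1 fell and 6 did not pass, against 0.273% and 0.659% of all probe sets called higher and lower. Bmal1, the E-box activator, went from 7.24 in PD to 3.66 in PD.SHR4 (log2 difference -3.58 ± 0.23 SE; limma, adjusted p = 0.00737). Per3 had a difference of 2.45 ± 0.15 and Per2 of 1.85 ± 0.18 (SE; limma, adjusted p = 0.00737 and 0.0243). Clock, the partner of Bmal1, measured -0.69 ± 0.15 (SE; limma, adjusted p = 0.121), and Nr1d1, a repressor of Bmal1 and Nfil3, 1.43 ± 0.42 (limma, adjusted p = 0.216), named after its value was seen. The median over the list was 0.52, beside 0.0030 over all genes. Without PD.SHR4 array 1 or 2 none of these calls held, with adjusted p (limma) of 0.103 and 0.130 for Bmal1 and Per3 and 0.209 and 0.294 for Per2. Per2 also did not pass without PD array 2 (limma, adjusted p = 0.0510) or PD array 3 (limma, adjusted p = 0.0560).

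Among targets of the D-box factors, Por, Nr1i3 and Aldh1a1 rose in PD.SHR4. The list held genes that PAR bZIP factors or NFIL3 are known to control in liver, with close paralogues of their cytochrome targets. It too was written with earlier results of these data known, so its counts are a description. Of its 39 genes 18 were not measured. Of 21 measured, 3 rose, none fell and 18 did not pass, beside 0.273% of all probe sets called higher and 0.659% lower. Of the differences 18 were above 0 and 3 below, where 3839 of all 7589 genes were above 0. Values did not overlap between strains for 11 genes, all of them higher, beside 14.8% of all probe sets. The list's median log2 difference was 0.45, beside 0.0030 over all genes.

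Por, the electron donor of microsomal cytochromes, measured 8.49, 8.41 and 8.70 in PD and 10.33 and 10.44 in PD.SHR4. Its difference was 1.85 ± 0.14 (SE; limma, adjusted p = 0.0100), with both PD.SHR4 arrays above every PD array. Nr1i3, the xenobiotic receptor CAR, measured 5.93, 6.57 and 6.03 against 7.91 and 8.12, a difference of 1.84 ± 0.22 (SE; limma, adjusted p = 0.0392). Aldh1a1, a retinal dehydrogenase, measured 8.24, 8.72 and 8.27 against 10.05 and 10.34, a difference of 1.78 ± 0.19 (SE; limma, adjusted p = 0.0344). None of the 3 shared the arrangement of Dbp within PD, since PD array 1 was not their highest. Without PD.SHR4 array 1 or 2 the adjusted p (limma) was 0.111 and 0.181 for Por, 0.248 and 0.373 for Nr1i3 and 0.236 and 0.309 for Aldh1a1. Without PD array 1 or 3 it was 0.0771 and 0.117 for Nr1i3 and 0.0730 and 0.101 for Aldh1a1, so that only Por passed.

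Ppara, the fatty acid receptor whose activity PAR bZIP factors support, measured 1.99 ± 0.31 (SE; limma, adjusted p = 0.0606), and it passed after median centring (limma, adjusted p = 0.0494) and after a further quantile normalisation (limma, adjusted p = 0.0479). Cyp3a2 measured 1.74 ± 0.29 (SE; limma, adjusted p = 0.0671), although its probe set may bind other Cyp3a transcripts, which was not tested. Alb measured 0.06 ± 0.11 (SE). Cyp7a1, the rate-limiting enzyme of bile acid synthesis, measured 0.44 ± 0.41 (SE), with PD array 1 below the other PD arrays, which were at 10.39 and 10.12. Fgf21, a hormone gene that NFIL3 represses, measured -0.14 ± 0.67 (SE), with PD values of 7.91, 5.99 and 8.32 on either side of the PD.SHR4 values of 7.20 and 7.34. Cyp3a2, Alb, Cyp7a1 and Fgf21 were named after their values were seen.

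**Figure D4:**
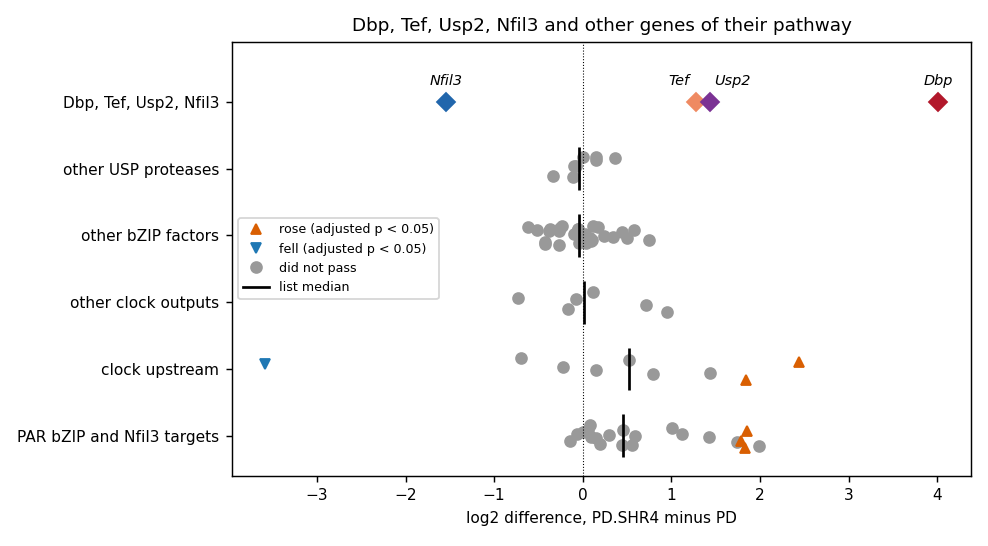
Log2 difference PD.SHR4 minus PD (horizontal axis) of Dbp, Tef, Usp2 and Nfil3 (diamonds, top) and of the genes of 5 lists, 1 point per gene (orange up, rose; blue down, fell; grey, did not pass limma's test), with a black bar at each list median. Dbp, at 4.01, lies to the right of every list gene and Bmal1, at -3.58, to the left, while the other bZIP factors and other USP proteases lie between -0.62 and 0.75.

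Other clock outputs, 6 of them measured, went both ways, and none passed. At an unadjusted p under 0.05, 2 were higher and 1 lower. Wee1, a cell cycle kinase gene, measured 0.72 ± 0.11, and Gys2, liver glycogen synthase, 0.96 ± 0.15 (SE; limma, adjusted p = 0.0606 for both). Id2, a helix-loop-helix inhibitor, measured -0.73 ± 0.23 (SE; limma, adjusted p = 0.233). Pfkfb3, a regulator of glycolysis, measured 0.11 ± 0.12 (SE; limma, adjusted p = 0.790). The median of these 6 was 0.02.

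None of the 28 other bZIP factors measured passed the test in either direction, with 3 higher and 4 lower at an unadjusted p under 0.05. Their differences ran from -0.62 to 0.75 with a median of -0.05. By smallest p the first were Xbp1, of the unfolded protein response, at 0.75 ± 0.13 (SE; limma, adjusted p = 0.0804), Creb3l1 at -0.52 ± 0.11 (limma, adjusted p = 0.121), Creb3l3, a liver factor of lipid metabolism, at 0.58 ± 0.14 (limma, adjusted p = 0.161), and Atf4, of the integrated stress response, at -0.43 ± 0.13 (limma, adjusted p = 0.231). Xbp1 passed after median centring (limma, adjusted p = 0.0494) and after a further quantile normalisation (limma, adjusted p = 0.0479). Cebpa, which also binds the albumin D site, measured 0.18, and Cebpb measured -0.27, both named after their values were seen.

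The differences of the 8 other ubiquitin-specific proteases measured ran from -0.34 for Usp1 to 0.37 for Usp54, with a median of -0.04, and none passed, including at an unadjusted p under 0.05. Of proteins that USP2 is known to stabilise, or that lie downstream of it, 4 transcripts were measured. Bmal1, described above, fell. Ccnd1, cyclin D1, measured 0.54 ± 0.23 (SE; limma, adjusted p = 0.386), Hsd11b1, which regenerates glucocorticoid in liver, 0.20 ± 0.19 (limma, adjusted p = 0.730), and Cry1 -0.23 ± 0.13 (limma, adjusted p = 0.537). These are transcript levels and do not measure protein stability.

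Genes with the profile most like each of the 4 were found from the mean absolute difference over the 5 arrays after each gene was centred on its own mean. The difference between the strains dominates this measure, and the neighbours are given as a description with no test. Nearest to Dbp was Hsd17b2, an oxidising steroid dehydrogenase, at a distance of 0.57, with values of 9.42, 9.53 and 7.96 in PD and 11.96 and 12.09 in PD.SHR4. Egr1, Cyp17a1, Per3 and Abcg5 followed at 0.76 to 0.98. The log2 difference of Dbp was the highest of all genes measured. The distance is not scaled to that size, so larger distances for Dbp follow from it and say nothing about its profile. Tef and Usp2 had Tex36, Cyp2j4 and Mmp12 among their 5 nearest in common, and each other at a distance of 0.18. Tex36 was at 0.06 from Usp2, with 3.59, 3.45 and 3.33 in PD against 4.80 and 4.77. The others were Zdhhc23 and Igfbp2 for Tef, at 0.17 both, and Cpt1a and Hsph1 for Usp2, at 0.15 and 0.17.

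Nfil3 had other neighbours, which the opposite sign of its strain difference fixed in advance. Its nearest was Psmb9, an immunoproteasome subunit, at a distance of 0.10, with 7.32, 7.43 and 7.79 in PD and 6.15 and 5.60 in PD.SHR4. Socs2, Oasl2, Epsti1 and Hamp followed at 0.13 to 0.14. Oasl2 and Epsti1 are interferon-induced genes, Socs2 a feedback inhibitor of growth hormone signalling and Hamp the gene of hepcidin.

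**Figure D5:**
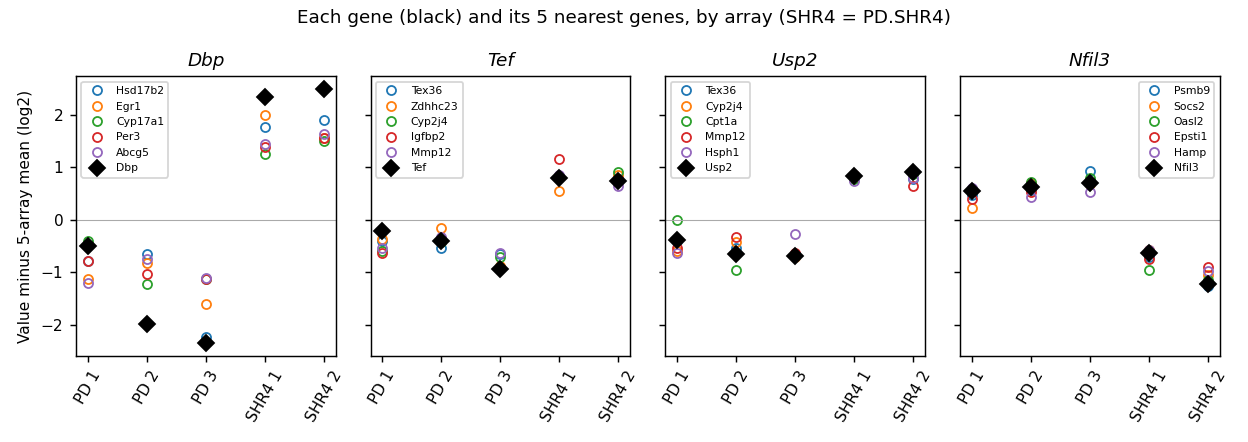
Values on the 5 arrays minus each gene's own mean (vertical axis, log2) for Dbp, Tef, Usp2 and Nfil3 (black diamonds) and the 5 genes nearest to each (open circles). The circles sit close to the diamonds for Usp2, Tef and Nfil3, with nearest distances of 0.06, 0.13 and 0.10, and away from them for Dbp, at 0.57. Distances are not scaled to the size of the strain difference, which is largest for Dbp.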

How the data were processed

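The deposited values were log2 expression levels of 8797 core-gene probe sets that the authors obtained by RMA in Expression Console, per the labels. Partek is also listed in the submitters' processing notes. RMA brings arrays to similar distributions and can compress differences of dim genes. No version, annotation release or build was given in the sources used here. With 3 and 2 arrays the number of arrays limits precision.

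GEO's platform annotation named the probe sets, of which 7603 had 1 symbol, 409 several and 785 none listed. RefSeq's gene table (GRCr8) supplied current symbols for 7584 of the 7603 by gene ID. For 14 genes with several probe sets the brightest was kept. The test was limma 3.58.1 (R 4.3.3; lmFit, eBayes, all 5 arrays, no covariate, two-sided), adjusted by Benjamini-Hochberg across the whole table, and was tested on simulated data. The genes and lists were chosen with earlier results of these data known. List genes were named when past the threshold, plus up to 4 by smallest p, and for Dbp, Tef, Nfil3 and Usp2 the 5 most alike genes. Lists covered upstream clock genes, D-box targets, other clock outputs, USP2 substrates, other bZIP factors, other USP proteases and cell type markers. Alternatives were each array left out, replicate blocks, variance models, normalisations, array weights and a filter on dim probe sets.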

Additional observations from a re-analysis of the deposited data

How the results depend on the processing

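The log2 differences of Dbp (3.64 to 4.56), Tef (1.07 to 1.60), Usp2 (1.39 to 1.53) and Nfil3 (-1.84 to -1.24) kept their direction in all 9 alternatives. Leaving out 1 array could not turn them, since the strains do not overlap. The replicate block gave the same differences as leaving out PD array 3, whose number has no partner in PD.SHR4. They were 3.64 for Dbp, 1.07 for Tef, 1.39 for Usp2 and -1.50 for Nfil3, so the block was not a separate check. Array weights moved Tef to 1.60. The weights were 0.48, 0.30 and 4.26 for PD arrays 1, 2 and 3, and 1.26 for each PD.SHR4 array. The PD level of that fit thus rested mostly on array 3. Counts of calls were less stable. The 82 called probe sets (24 higher, 58 lower) became 163 (64, 99) with the replicate number as a block, 819 (333, 486) with array weights, 151 (53, 98) with an intensity trend and robust shrinkage, 149 (52, 97) without the dimmest 25%, and 2 (0, 2) with no variance shrinkage. Higher calls were 47 after a further quantile normalisation and 41 after median centring. Leaving out 1 array gave 0 to 55 calls (0 to 25 higher, 0 to 30 lower). Without a PD.SHR4 array there were none, the lone array being assumed to vary like PD.

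With the replicate block 6 D-box targets and 1 other clock output rose and 2 lymphocyte markers fell. Arrays with the same number had deviations that correlated at 0.05 and 0.08 over probe sets (2 pairs), so the numbers were not treated as a pairing. With array weights the rises were 4 clock genes, 8 targets, 2 other outputs, 3 other bZIP factors and 1 other USP protease, and the falls 2 clock genes, 3 other bZIP factors, 1 hepatocyte, 6 macrophage, 5 lymphocyte and 1 endothelial or stellate marker. With the intensity trend 5 targets, 1 other output and 1 other bZIP factor rose and 1 macrophage marker fell. Without the dimmest 25%, 5 targets and 2 other outputs rose and 1 macrophage marker fell. A further quantile normalisation gave 3 rises in clock genes, 4 in targets and 1 each in other outputs and other bZIP factors, and median centring 4 in targets and 1 in other bZIP factors. Without variance shrinkage, 0 clock genes, targets or USP2 substrates passed. Leaving out 1 array gave 0 to 2 rises and 0 to 1 fall among clock genes, 0 to 3 rises among targets and 0 to 1 fall among USP2 substrates. The stellate marker Des measured -0.0077 to 0.38 over these fits. The cause of these changes was not tested.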
